A study of Danio rerio with 12 samples.

Results

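The genes described here are protein-coding genes of the zebrafish mitochondrial genome, namely *mt-nd1*, *mt-nd2*, *mt-nd4* and *mt-nd5* of complex I, *mt-cyb* of complex III, *mt-co1*, *mt-co2* and *mt-co3* of complex IV and *mt-atp6* of complex V. They were chosen by the symbols starting with mt- in the study's tables and matched to Ensembl identifiers. All 9 were found, among 31953 genes measured at 5 days post fertilization (dpf) and 20963 at 8 dpf. The other mitochondrial genes that could be matched were *mt-nd3*, *mt-nd4l*, *mt-nd6* and *mt-atp8*, which makes 13 protein-coding genes in all, and these 4 are given for comparison. The ribosomal RNAs of the mitochondrion were not analysed here.

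The study asked how loss of Mia40a changes the transcripts and proteins of the larva. RNA-Seq was done on pools of 5 whole larvae, with 3 pools of *mia40a* waw1/waw1 mutants (Mut) and 3 pools of *mia40a* +/+ siblings (WT) at each of 2 ages, 12 libraries in all. All larvae were of the AB background, had heterozygous carriers of the waw1 allele as parents and were sorted by genotype at 3 dpf. The 8 dpf larvae of both genotypes had been fed from 5 dpf, so age and feeding change together. The paper names starvation as a possible bias in the mutants of 8 dpf and centred its further analysis on 5 dpf. At 8 dpf, genotype and nutritional state therefore cannot be told apart. The libraries were prepared with a stranded mRNA kit. The mutation is present in every cell, and RNA of a whole larva mixes all tissues, so fewer cells of a type and less RNA per cell cannot be told apart. Mut and WT pools were taken from the same clutch of such a cross, as the study's design text has it. The paper adds that samples of the older larvae were collected and processed at different times and showed a batch effect. At 5 dpf, p-values therefore measure only the spread between pools of sibling larvae. At 8 dpf, whether all pools came from the same clutch is uncertain, and p-values measure the spread between pools that is left after a batch term. A single mutant allele was examined.

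Mitochondrial DNA encodes a small core of the respiratory chain, while all other subunits are encoded in the nucleus and imported. It is transcribed from both strands as long precursors that are cut apart, largely at the tRNAs between the genes. Most of the resulting mRNAs receive a poly(A) tail, and the mRNAs are translated inside the organelle. Their levels therefore depend on the number of genome copies, on transcription and on the processing and stability of each mRNA. Mia40 (Chchd4) is the oxidoreductase of the intermembrane space that traps and folds imported cysteine-rich proteins, many of them subunits or assembly factors of complexes I and IV. The proteins encoded by mitochondrial DNA do not pass through this import route, but they need its products to be assembled.

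The values are normalized read counts per gene, called normalized values below. Library totals ranged from 16997847 to 18177809 at 5 dpf and from 22595423 to 25417541 at 8 dpf. The ages were normalized separately and the 8 dpf values have had a batch effect removed, so Mut and WT are compared within an age. Counts of this size carry a counting error of at most 0.602% of a value at 5 dpf and 0.663% at 8 dpf, well under the spread between pools. Longer mRNAs give more reads, and levels of different genes are not compared. The targeted gene, *mia40a* (*chchd4a*, ENSDARG00000033376), stood at 82, 91 and 92 in the WT pools of 5 dpf and at 264, 262 and 261 in the Mut pools. The 8 dpf pools had 488, 394 and 397 (WT) and 383, 413 and 443 (Mut), so its transcript was higher in Mut at 5 dpf and overlapped with WT at 8 dpf.

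At 5 dpf, none of the 9 mitochondrial genes passed the test, which was an adjusted p under 0.05 in limma over all 22521 genes tested. Of all genes, 5.99% passed, with 3.82% higher and 2.17% lower in Mut. At an unadjusted p under 0.05 there were 3 of the 9, *mt-nd1*, *mt-co1* and *mt-co2*, while 20.1% of all genes reached that level. For 6 of the 9, all pools of one genotype lay above all pools of the other, as for 24.6% of all genes tested. Of these 6, *mt-nd1*, *mt-nd4*, *mt-nd5* and *mt-co1* had higher values in Mut and *mt-co2* and *mt-co3* lower values. Log2 fold changes (Mut over WT) ran from -0.26 to 0.29 with a median of 0.091, against a median of -0.0012 over all genes.

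At 8 dpf, none of the 9 passed the limma test either, where 4.66% of all 20963 genes did (1.34% higher and 3.32% lower in Mut). The only one of the 9 at an unadjusted p under 0.05 was *mt-nd5*, a level reached by 20.8% of all genes. Mut and WT did not overlap for 4 of the 9, *mt-nd4*, *mt-nd5*, *mt-co1* and *mt-cyb*, all of them higher in Mut. Over all genes tested this share was 32.6%. Log2 fold changes ran from -0.043 to 0.45 with a median of 0.074, against 0.012 over all genes. No mitochondrial gene reached a log2 fold change of 0.9 at either age, the second threshold applied here, which 1.15% and 0.906% of all genes passed together with the test. With 3 pools against 3, an exact permutation test of a single gene cannot go below p = 0.1.

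**Figure D1:**
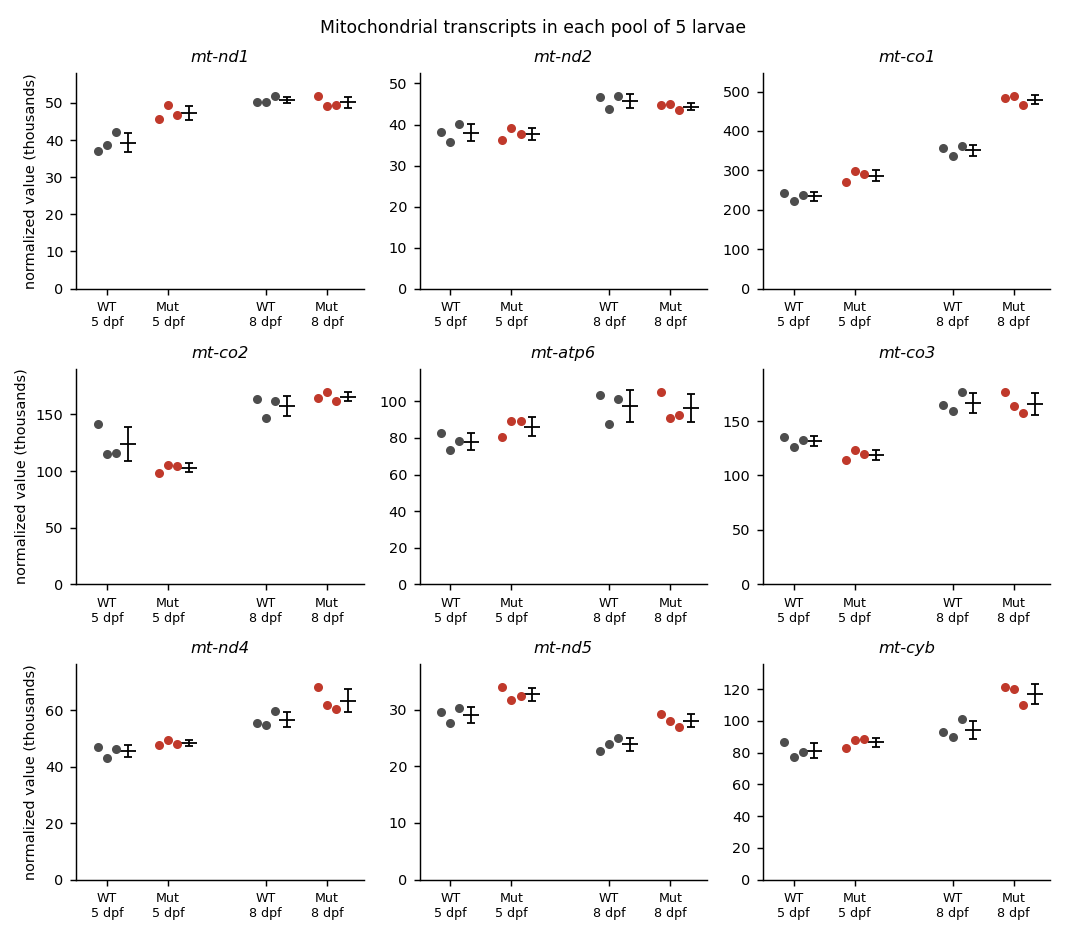
Normalized values (in units of 1000, axis from 0) of each of the 9 mitochondrial genes in each pool of 5 larvae, WT in grey and Mut in red, with the mean and SD of 3 pools in black. The ages were normalized separately. *mt-co1* was higher in all 3 Mut pools at both ages, *mt-nd1* at 5 dpf and *mt-cyb* at 8 dpf.

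Complex I takes electrons from NADH, and its mitochondrial subunits form the proton-pumping membrane arm. *mt-nd1* (ENSDARG00000063895) encodes the subunit next to the quinone-binding site. Its normalized values at 5 dpf stood at 37166, 38772 and 42059 in WT, against 45676, 49349 and 46870 in Mut. Every Mut pool was above every WT pool, with a log2 fold change of 0.27 (standard error 0.089, limma adjusted p = 0.119). At 8 dpf the values were 50302, 50243 and 51746 in WT, against 51787, 49239 and 49441 in Mut. The groups overlapped there, with a log2 fold change of -0.018 that turned to 0.0064 within the larger batch of 4 libraries. The smaller batch holds 1 library per genotype and gives no test. The effects at the 2 ages differed by -0.28 (standard error 0.14), which did not pass the test of the difference (limma adjusted p = 0.244).

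*mt-nd2* (ENSDARG00000063899) encodes one of the antiporter-like subunits of the membrane arm. Its normalized values were 38108, 35845 and 40156 in WT, against 36168, 39182 and 37653 in Mut at 5 dpf. Those at 8 dpf were 46614, 43677 and 46874 in WT, against 44658, 44962 and 43471 in Mut. The groups overlapped at both ages, with log2 fold changes of -0.013 at 5 dpf and -0.043 at 8 dpf. The 95% confidence intervals ran from -0.20 to 0.18 and from -0.28 to 0.20. The sign at 5 dpf depended on single pools, with a range of -0.055 to 0.027 when each was left out in turn.

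*mt-nd4* (ENSDARG00000063917) encodes a second subunit of the same kind. At 5 dpf its normalized values were 47137, 43277 and 46284 in WT, against 47604, 49604 and 48161 in Mut, so the lowest Mut pool was only slightly above the highest WT pool. At 8 dpf they were 55556, 54833 and 59816 in WT, against 68185, 61949 and 60436 in Mut, again without overlap. The log2 fold changes were 0.089 (standard error 0.086) and 0.16 (standard error 0.12), and the latter was 0.24 within the larger batch.

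*mt-nd5* (ENSDARG00000063921) encodes the subunit at the far end of the membrane arm. Its normalized values at 5 dpf stood at 29479, 27563 and 30278 in WT, against 33907, 31753 and 32415 in Mut. Those at 8 dpf were 22724, 23869 and 24939 in WT, against 29237, 28011 and 26934 in Mut. All Mut pools were above all WT pools at both ages. The log2 fold change was 0.17 (standard error 0.081, limma adjusted p = 0.284) at 5 dpf and 0.24 (standard error 0.092, limma adjusted p = 0.195) at 8 dpf. A batch effect had already been removed from these values, and a fit without a batch term overstates the degrees of freedom. Without that term the limma adjusted p at 8 dpf was 0.0688, which did not pass either. Within the larger batch the log2 fold change of *mt-nd5* was 0.30.

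*mt-cyb* (ENSDARG00000063924) encodes cytochrome b, the haem-bearing core of complex III and its sole mitochondrial subunit. Its normalized values at 5 dpf stood at 86518, 77174 and 80115 in WT, against 83123, 87983 and 88446 in Mut. These overlapped, with a log2 fold change of 0.091 (standard error 0.099). At 8 dpf the values were 92739, 89610 and 100824 in WT, against 121038, 120148 and 109884 in Mut. All Mut pools were higher, at 117023 ± 6199 against 94391 ± 5787 for WT (mean ± SD, n = 3 pools each), and the log2 fold change was 0.31 (standard error 0.15, limma adjusted p = 0.276). Within the larger batch it was 0.40.

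Complex IV passes electrons to oxygen. *mt-co1* (ENSDARG00000063905) encodes its catalytic subunit, which holds the haem groups and a copper. Its normalized values at 5 dpf stood at 242517, 222255 and 236975 in WT, against 270134, 297481 and 290947 in Mut. The mean was 22.3% higher in Mut without overlap, with a log2 fold change of 0.29 (95% confidence interval 0.014 to 0.57, limma adjusted p = 0.225). At 8 dpf they were 355719, 336033 and 363076 in WT, against 484443, 487910 and 466563 in Mut. That mean was 36.4% higher in Mut, and the lowest Mut pool was far above the highest WT pool. The log2 fold change was 0.45 (95% confidence interval -0.13 to 1.02, limma adjusted p = 0.349), and 0.49 within the larger batch. The standard error of 0.25 is set mostly by the trend of the spread with the level that limma fitted across genes, since the pools themselves had SDs of 13982 in WT and 11456 in Mut. With no trend, the limma adjusted p for this gene was 0.149 at 5 dpf and 0.115 at 8 dpf. *mt-co1* is not alone in this. *mt-nd1* at 8 dpf had 50764 ± 851 in WT and 50156 ± 1416 in Mut (mean ± SD, n = 3 pools each), with a standard error of 0.11.

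*mt-co2* (ENSDARG00000063908) encodes the subunit that receives electrons from cytochrome c. At 5 dpf its normalized values were 141588, 114748 and 115544 in WT, against 98121, 105528 and 104846 in Mut. No Mut pool reached the lowest WT pool, and the first WT pool stood well above the other two. The log2 fold change was -0.26 (standard error 0.12, limma adjusted p = 0.249). Leaving out that first WT pool brought it to -0.16. At 8 dpf the values were 164051, 147112 and 161516 in WT, against 164743, 170009 and 162222 in Mut, which overlapped. There the log2 fold change was 0.074 (standard error 0.17), and it turned to -0.053 when libraries were scaled to the mean of the 9 mitochondrial genes. The difference between the ages was 0.34 (standard error 0.21, limma adjusted p = 0.383).

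*mt-co3* (ENSDARG00000063912) encodes the remaining mitochondrial subunit of complex IV. Its normalized values at 5 dpf stood at 135711, 126615 and 132873 in WT, against 114504, 123438 and 119449 in Mut. All Mut pools were lower, and the log2 fold change was -0.15 (standard error 0.10, limma adjusted p = 0.486). Those at 8 dpf were 164882, 159191 and 176993 in WT, against 176543, 164254 and 157089 in Mut. Here the groups overlapped, with a log2 fold change of -0.0095 that was 0.072 within the larger batch.

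*mt-atp6* (ENSDARG00000063911) encodes the subunit of the ATP synthase that forms part of its proton channel. At 5 dpf its normalized values were 82527, 73413 and 78110 in WT, against 80320, 89033 and 89368 in Mut. At 8 dpf they were 103463, 87755 and 101392 in WT, against 105261, 90959 and 92673 in Mut. The groups overlapped at both ages, with log2 fold changes of 0.14 (standard error 0.10) and -0.018 (standard error 0.15), and the latter was 0.038 within the larger batch.

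**Figure D2:**
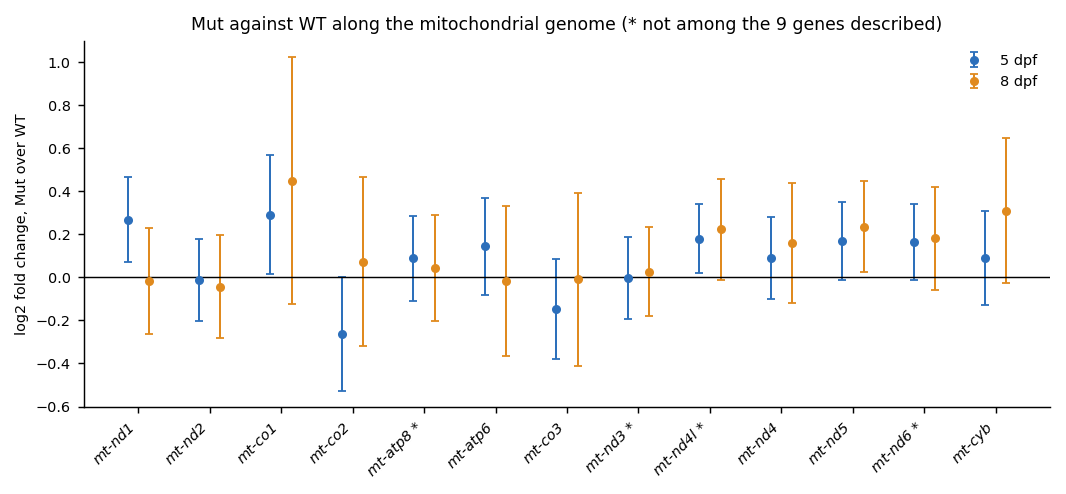
Log2 fold change (Mut over WT) with its 95% confidence interval from limma for the 13 mitochondrial genes, 5 dpf in blue and 8 dpf in orange, in the order in which they follow each other on the mitochondrial genome of the later assembly GRCz12tu. The order was used with no scale for distance. Intervals of *mt-nd1*, *mt-co1*, *mt-co2* and *mt-nd4l* at 5 dpf and of *mt-nd5* at 8 dpf lie to one side of 0 before any adjustment, and none passed after it.

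The 4 other mitochondrial genes stayed within the same range. *mt-nd4l*, whose reading frame overlaps that of *mt-nd4*, stood at normalized values of 7120, 7535 and 7748 in WT, against 9050, 8228 and 8123 in Mut at 5 dpf. These did not overlap, and the log2 fold change was 0.18 (limma adjusted p = 0.197). *mt-nd6*, the one protein-coding gene on the opposite strand, had a log2 fold change of 0.17 at 5 dpf and 0.18 at 8 dpf, with groups that did not overlap at 8 dpf. *mt-nd3* stood at -0.0027 and 0.025 and *mt-atp8* at 0.089 and 0.042, and both 8 dpf values turned negative when libraries were scaled to the same total (-0.019 and -0.0027). None of the 4 passed the test at either age. *mt-atp8* overlaps *mt-atp6*, *mt-atp6* overlaps *mt-co3* and *mt-nd5* overlaps *mt-nd6* in the later assembly GRCz12tu. Reads lying in 2 genes were left out by the authors, and whether the counting used the strand is not given in the sources used here, so the values of these neighbours are less certain.

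The effect of genotype was then compared between the ages. For 0 of the 9 genes did the log2 fold changes differ between 5 and 8 dpf by the limma-based test, against 8.09% of 20598 genes tested at both ages. The lowest adjusted p among them was the 0.244 of *mt-nd1*. Its unadjusted p was 0.0563, so 0 of the 9 were under 0.05 unadjusted as well.

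The 9 genes together held 4.70%, 4.41% and 4.64% of all normalized values in the WT libraries at 5 dpf. In the Mut libraries they held 4.76%, 4.80% and 4.76%. The means were 4.59% ± 0.153 and 4.78% ± 0.0242 (SD, n = 3 pools each), and the groups did not overlap, although the highest WT library was only just below the lowest Mut library. At 8 dpf the share was 4.15%, 4.39% and 4.57% in WT and 5.15%, 4.87% and 4.71% in Mut, with means of 4.37% ± 0.206 and 4.91% ± 0.222 (SD, n = 3 pools each). There, too, the groups did not overlap, and the difference was 0.540 percentage points. Of it, 0.463 percentage points lay in complex IV, whose 3 genes went from 2.83% ± 0.127 to 3.29% ± 0.122 (SD, n = 3 pools each). The share of complex III went from 0.395% ± 0.0293 to 0.475% ± 0.0291, also without overlap. Within complex IV the difference was that of *mt-co1*, whose share was 1.47% ± 0.0643 in WT and 1.95% ± 0.0610 in Mut, while *mt-co2* held 0.658% and 0.672% and *mt-co3* 0.699% and 0.673%. The shares of complex I (0.741% and 0.755%) and of complex V (0.407% and 0.391%) overlapped. At 5 dpf, complex V was the only complex whose share was apart, with 0.447% ± 0.0182 in WT and 0.486% ± 0.0121 in Mut. The normalized values of its gene, *mt-atp6*, overlapped. Within complex IV the genes moved in opposite directions at 5 dpf. *mt-co1* held 1.34% in WT and 1.61% in Mut, *mt-co2* 0.709% and 0.580% and *mt-co3* 0.755% and 0.672%. Taken singly, the shares of these 3 genes and of *mt-nd1* (0.226% and 0.267%) did not overlap. These shares are of normalized and, at 8 dpf, batch-corrected values and are not shares of reads. How many of all genes have shares that do not overlap was not worked out, for single genes or for sums.

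**Figure D3:**
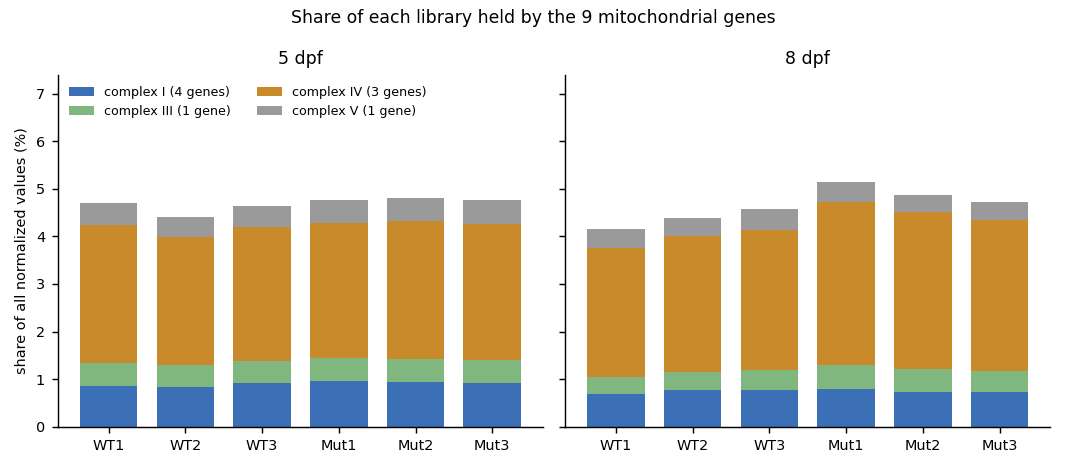
Share (percent, from 0) of all normalized values of each library held by the 9 mitochondrial genes, stacked by complex. The 3 WT libraries hold 4.41 to 4.70% at 5 dpf and 4.15 to 4.57% at 8 dpf, and the 3 Mut libraries hold 4.76 to 4.80% and 4.71 to 5.15%.

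Markers of other tissues moved beside this share. The summed level of 10 skeletal muscle genes was 6.98 to 8.94% of a library in WT and 9.49 to 10.2% in Mut at 8 dpf, and 4.41 to 5.16% and 4.83 to 5.65% at 5 dpf. All 10 had positive log2 fold changes at both ages, with medians of 0.16 and 0.43, and 0 passed the limma test, with 1 and 4 at an unadjusted p under 0.05. Of 13 exocrine pancreas genes, 11 fell at 5 dpf and their sum went from 0.629 to 0.845% in WT to 0.297 to 0.375% in Mut, while at 8 dpf 0 passed in limma, with 6 at an unadjusted p under 0.05. All 13 were negative at both ages, with median log2 fold changes of -1.35 and -1.11, and 0 differed between the ages. Of the liver genes, 7 of 16 fell at 5 dpf and 3 of 15 at 8 dpf, and of the lens genes 0 of 8 and 5 of 7. Over all genes, 2.17% and 3.32% fell. At an unadjusted p under 0.05 in limma there were 9 and 11 of the liver and 0 and 7 of the lens, against 20.1% and 20.8% of all genes. Of the heart genes, 2 of 7 rose at 5 dpf and 0 of 6 at 8 dpf, with 6 and 0 at an unadjusted p under 0.05 in limma. Over all genes, 3.82% and 1.34% rose. No gene of the intestine (5 tested), the erythrocytes (3 and 2 tested) or the brain (5 tested) passed in limma at either age, and at an unadjusted p under 0.05 there were 1 and 4 of the intestine and 0 of the others. No marker had a mean of 0. Not all listed symbols could be matched, for example 10 of 17 for skeletal muscle and 5 of 12 for the intestine. The part of these tissues in the mitochondrial share was not tested.

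Since a ratio of 2 genes within a library does not depend on how the library was scaled, the balance among the 9 was described next, as the log2 of each gene over the geometric mean of the other 8. At 5 dpf the groups did not overlap for 5 of the 9, as for 26.8% of all genes when set over the geometric mean of the 9. *mt-co1* stood at 1.93, 1.93 and 1.93 in the WT pools and at 2.14, 2.20 and 2.19 in the Mut pools, a difference of 0.25. *mt-nd1* was 0.22 higher in Mut. *mt-co2* was lower in Mut by 0.37 and *mt-co3* by 0.24. *mt-nd2* was lower by 0.094. At 8 dpf the groups did not overlap for 6 of the 9, and for 36.0% of all genes. *mt-co1* was again the gene furthest up, 0.36 higher in Mut, followed by *mt-cyb* (0.21) and *mt-nd5* (0.12). The 3 below were *mt-nd2* (-0.19), *mt-nd1* (-0.16) and *mt-co3* (-0.15). *mt-nd1* thus lay above WT at 5 dpf and below it at 8 dpf relative to the other 8, with no overlap at either age. SDs over 3 pools ran from 0.0015 to 0.15. These ratios share their denominators and were not tested. Those of 8 dpf also follow the gene-by-gene removal of a batch effect, which can alter ratios and narrow the spread between pools.

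**Figure D4:**
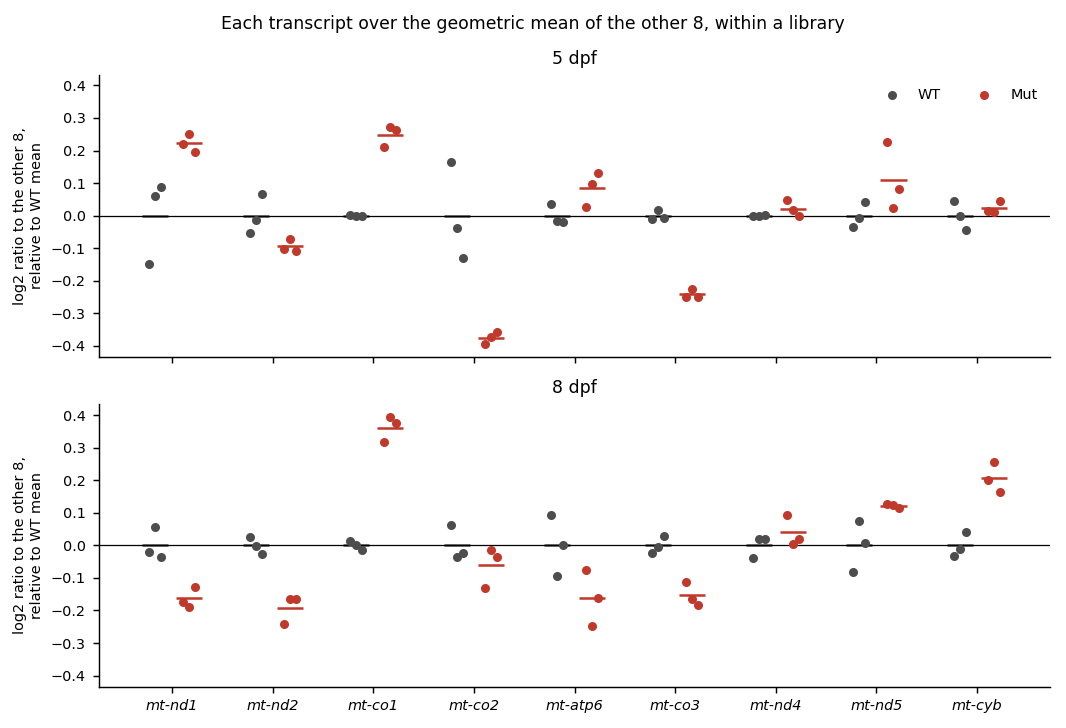
Log2 of each of the 9 mitochondrial genes over the geometric mean of the other 8 in the same library, set to 0 at the WT mean of each age. Points are pools and bars are group means of 3 pools, WT in grey and Mut in red. *mt-co1* lies 0.25 above WT at 5 dpf and 0.36 above it at 8 dpf, and *mt-co3* lies 0.24 and 0.15 below.

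Direct ratios of normalized values are made of the same values as the balance and are no separate check. No share over all pairs of genes was worked out for them. The ratio of *mt-co1* to *mt-co3* was 1.79, 1.76 and 1.78 in the WT pools of 5 dpf, against 2.36, 2.41 and 2.44 for Mut. The 8 dpf ratios were 2.16, 2.11 and 2.05 in WT and 2.74, 2.97 and 2.97 in Mut. Mut was 1.35-fold and 1.37-fold above WT, and the pools of a group lay close together. At 8 dpf a batch effect had been removed gene by gene. That removal can alter ratios and narrow the spread between pools, so the 8 dpf SDs and gaps rest partly on it. The ratio of *mt-co1* to *mt-co2* went from 1.90 ± 0.172 to 2.78 ± 0.0336 at 5 dpf and from 2.23 ± 0.0593 to 2.90 ± 0.0392 at 8 dpf (SD, n = 3 pools each). That of *mt-co3* to *mt-co2* overlapped at both ages. The ratio of *mt-cyb* to *mt-nd1*, a pair chosen after its values were seen, was 2.07 ± 0.224 in WT and 1.83 ± 0.0528 in Mut at 5 dpf, and 1.86 ± 0.0835 and 2.33 ± 0.109 at 8 dpf (SD, n = 3 pools each). The groups did not overlap at either age, but at 5 dpf only narrowly (lowest WT 1.90, highest Mut 1.89), and the difference between the ages was not tested. The ratio of *mt-nd5* to *mt-nd2* was higher in Mut at both, at 0.766 ± 0.0102 and 0.870 ± 0.0640 and then 0.522 ± 0.0308 and 0.632 ± 0.0194. Ratios of *mt-nd1* to *mt-nd2* and to *mt-co2* did not stay apart. Mut was 1.21-fold and 1.43-fold of WT at 5 dpf without overlap. At 8 dpf it was 1.02-fold and 0.94-fold, and the groups overlapped.

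How the 9 varied over all 12 libraries was described by correlating the log2 values of each, centred within each age, with the mean of the other 8. These points share libraries and their scaling. The values were not centred within genotype, so the differences between Mut and WT given above enter r. *mt-nd4* (r = 0.948) and *mt-cyb* (r = 0.887) followed the others most closely, *mt-co1* (0.748) and *mt-nd5* (0.719) less so. *mt-atp6* stood at 0.532, while *mt-nd1* (0.238) and *mt-nd2* (0.202) followed the others only weakly. *mt-co3* (0.081) and *mt-co2* (-0.045) did not follow the others. Among 15959 genes with a mean of at least 50 at both ages, the 5 whose profile was most like the mean of the 9 over these libraries were *si:ch211-40k21.5* (r = 0.971), *pter* (0.960), *ftsj1* (0.944), *mt-nd6* (0.940) and *tnni4b.1* (0.936). Of these, *tnni4b.1* is named as a troponin I gene and *ftsj1* as an RNA methyltransferase gene. None of the 5 passed the test for genotype at either age.

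The same complexes have many subunits encoded in the nucleus. Of 81 such genes tested at 5 dpf, 40 rose, 0 fell and 41 did not pass, with a median log2 fold change of 0.29 against 0.091 for the 9 mitochondrial genes. By complex, 18 of 38 rose in complex I, 8 of 9 in complex III, 6 of 18 in complex IV and 8 of 16 in complex V, where 3.82% of all genes rose. *cox6b1*, a complex IV subunit of the intermembrane space, had 451, 357 and 504 in WT, against 788, 850 and 748 in Mut (log2 fold change 0.87, limma adjusted p = 0.00245). *atp5mc1*, a gene of the c-ring of the ATP synthase, had 3650, 3982 and 3988 in WT, against 6159, 6923 and 6171 in Mut (0.73). *cyc1*, cytochrome c1 of complex III, had 2915, 3024 and 3036 in WT, against 4104, 4611 and 4393 in Mut (0.54). Mut and WT did not overlap in these 3 genes, nor in 24.6% of all genes tested. The 3 were named for their low adjusted p in these same data, which makes such a gap likely. Of complex I, *ndufa10* (0.37), *ndufab1* (0.44), *ndufs1* (0.33) and *ndufs5* (0.36) rose. Others that rose were *uqcrc2* (0.45), *uqcrb* (0.59) and *uqcrc1* (0.42) of complex III. In complex IV, *cox5b* (ENSDARG00000068738, 0.67), *cox5aa* (0.42) and *cox6c* (0.29) rose. In complex V, *atp5f1d* (0.41), *atp5pb* (0.35) and *atp5mf* (0.38) did. At 8 dpf 0 of the 81 passed in limma, against 4.66% of all genes, and the median was 0.033. At an unadjusted p under 0.05 there were 5 of the 81, against 20.8% of all genes. The effect was lower at 8 than at 5 dpf for 17 of the 81 by the test of the difference, and higher for 0. Of all 20598 genes tested at both ages, 8.09% differed, 1266 of them lower and 400 higher at 8 dpf. The gene of lowest p at 8 dpf, *cox6a1* (ENSDARG00000054588) of complex IV, stood at 0.90 (limma adjusted p = 0.0831).

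The count of 40 depends on the settings. It was 7 without the filter on low values, 4 without the trend, 7 with the replicate number as a block and 14 when libraries were scaled to the 9 mitochondrial genes. Without single pools it was 24 (WT1), 13 (WT2), 23 (WT3), 49 (Mut1), 7 (Mut2) and 6 (Mut3), and 0 fell in each of these fits.

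The mitochondrial and nuclear genes of a complex were then set against each other within each library, as the mean log2 of the former less the mean log2 of the latter. At 5 dpf this difference was lower in Mut in all 4 complexes and the groups did not overlap in any. For complex IV it was 6.82, 6.75 and 6.78 in WT and 6.51, 6.43 and 6.45 in Mut, a change of -0.32. Complex III changed by -0.31, complex V by -0.19 and complex I by -0.15. In complexes I, III, IV and V, the nuclear mean was higher in Mut by 0.28, 0.40, 0.28 and 0.33. The mitochondrial mean changed by 0.13, 0.091, -0.039 and 0.14, so it was lower in complex IV only. These differences were not tested, and no share over all genes was worked out for this measure. The nuclear rise described above, whose count depended on the settings, enters each of them. They are therefore no separate result on the mitochondrial genes. At 8 dpf, only complex III was apart, and there the change was 0.28, upward, with 4.71, 4.85 and 4.97 in WT and 5.20, 5.17 and 5.00 in Mut. Complex III has *mt-cyb* as its one mitochondrial gene. For complexes I (0.065), IV (0.10) and V (-0.049) the groups overlapped at 8 dpf.

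**Figure D5:**
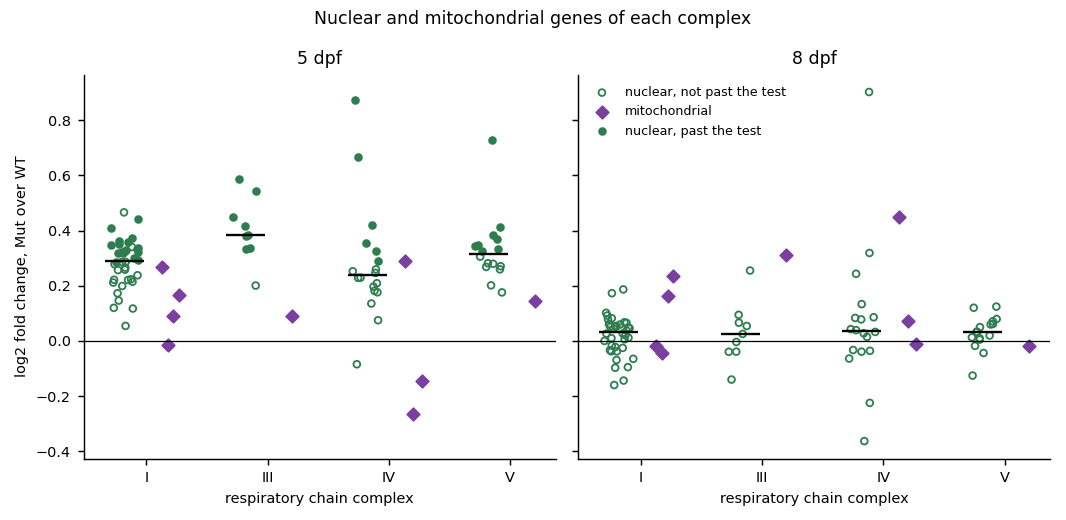
Log2 fold change (Mut over WT) of the nuclear genes (green circles, filled where they passed the limma test, bar at their median) and of the 9 mitochondrial genes (violet diamonds) of each complex, 5 dpf on the left and 8 dpf on the right. The 4 nuclear medians run from 0.24 to 0.38 in the left panel and from 0.025 to 0.036 in the right.

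Genes that copy, transcribe, process and translate the mitochondrial genome, or insert and assemble its products, were given by list. *taco1* is in 2 of the lists and was counted once. Together 29 of 131 rose at 5 dpf and 0 fell, with a median log2 fold change of 0.28, where 3.82% of all genes rose and 2.17% fell. The count was 5 without the filter on low values, 9 without the trend, 11 with the replicate number as a block and 14 when scaled to the mitochondrial genes. Leaving out WT1 gave 17, WT2 16, WT3 22, Mut1 19, Mut2 10 and Mut3 13. At 8 dpf 3 fell and 0 rose, a share of falls below the 3.32% of all genes, so these 3 are given as values of single genes. The number that fell was 1 without WT2 and 0 without WT3, Mut1, Mut2 or Mut3, without the trend or within the larger batch. With the batch term, leaving out WT3 or Mut3 returns the fold changes of the larger batch, so these are not separate checks. Without WT1, 1 rose and 2 fell, and without the batch term 7 rose and 7 fell at 8 dpf. The genotype effect was lower at 8 than at 5 dpf for 28 of the 131 and higher for 0. Of all 20598 genes tested at both ages, 1266 were lower and 400 higher.

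For the maintenance of mitochondrial DNA, 2 of 20 genes rose at 5 dpf. They were *mpv17*, an inner membrane protein needed to keep mitochondrial DNA (0.71), and *slc25a36b*, whose human counterpart is a pyrimidine nucleotide carrier (0.36). At 8 dpf *fen1* (-0.42) and *primpol* (-0.52) of this list fell, both of which also act on nuclear DNA. For transcription, 1 of 9 rose, *mrpl12* (0.60), a ribosomal protein that also binds the mitochondrial RNA polymerase in mammals. For regulators of mitochondrial biogenesis, 1 of 10 rose, the coactivator *pprc1* (0.70), where 3.82% of all genes rose. At 8 dpf 0 genes for transcription and 0 regulators passed in limma. At an unadjusted p under 0.05 there were 4 and 2, against 20.8% of all genes. The lowest p for transcription was that of *mterf2* (0.52, limma adjusted p = 0.0743).

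For the processing and stability of mitochondrial RNA, 8 of 22 rose at 5 dpf. *lrpprc*, which binds and stabilizes mitochondrial mRNAs, had 1425, 1429 and 1500 in WT, against 2088, 2096 and 2057 in Mut (log2 fold change 0.52, limma adjusted p = 0.00116). *tbrg4* (0.87) and *fastkd2* (0.41) belong to the FASTK family of mitochondrial RNA-binding proteins, and *hsd17b10* (0.41) is part of mitochondrial RNase P. For translation, 8 of 34 rose, among them the histidyl-tRNA synthetase gene *hars2* (0.99) and the elongation factors *tsfm* (0.82), *gfm1* (0.69) and *tufm* (0.42). In both lists 0 passed at 8 dpf, with 6 and 4 at an unadjusted p under 0.05, against 20.8% of all genes.

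For insertion into the membrane and assembly of complex I, 2 of 16 rose at 5 dpf, *tmem126a* (0.36) and *ndufaf6* (0.51). *foxred1*, a complex I assembly factor, fell at 8 dpf, with 295, 316 and 294 in WT, against 176, 153 and 172 in Mut (-0.85, limma adjusted p = 0.0133). For assembly of complexes III, IV and V, 9 of 31 rose at 5 dpf. They include *cox17* (0.69), a copper chaperone and substrate of Mia40 in yeast, *coa3* (0.67), which binds newly made Co1 in yeast and human cells, *cox10* (0.50), which makes the haem precursor of *mt-co1*, and *cmc2* (0.61). At 8 dpf 0 of this list passed, with 4 at an unadjusted p under 0.05, against 20.8% of all genes.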

How the data were processed

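RNA-Seq libraries of whole larvae were analysed. Paired reads were trimmed (Trimmomatic 0.33), aligned (STAR 2.4.0a) to GRCz10 and counted per gene (featureCounts 1.4.5-p1) by the authors, who left out reads in several genes or places. The deposited values of both ages are a score, namely read counts that the authors normalized per library and rounded, at 8 dpf after removal of a batch effect with removeBatchEffect of edgeR 3.16.5 on a log scale. The authors used DESeq2 for their own tests.

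Values were put on a log2 scale after a pseudocount of 1 was added, and genes averaging 5 or more were tested by limma (version 3.58.1, R 4.3.3) with trended eBayes, as two-sided tests under Benjamini-Hochberg adjustment over all genes. Genotype was the only term at 5 dpf, and at 8 dpf it was joined by the batch (WT3 and Mut3 against the other 4 libraries). That batch was derived from the study's tables before and after its removal. The paper links the batch effect to different times of collection and processing, without naming the libraries in its text. Total degrees of freedom were 10.2 and 8.04. The ages were compared per gene from the 2 fits (difference of log2 fold changes, Satterthwaite degrees of freedom). Ratios and shares were given without a test. Fits were tested on simulated counts with larger changes and no batch effect. That gives no measure of their power for changes as small as those described.

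Symbols came from a table of Ensembl identifiers and from the study's tables. Overlaps and order of mitochondrial genes came from RefSeq's GRCz12tu annotation. The members and gene lists were chosen with earlier results of these data known. Named are all mitochondrial genes, *chchd4a* and the 5 genes most alike in profile. The naming rule picked, per list and age, up to 4 genes of lowest adjusted p among those past the test. Where none passed, it picked the gene of lowest p. Not all genes so picked are printed. Alternatives were other pseudocounts, filters, scalings and thresholds, no trend, the replicate number as a block, other batch models and leaving out each library. Scaling to the 9 genes and the recounts of nuclear lists were added after the data were seen. Tables and figures were made in Python 3.11.15 with pandas 2.3.3 and matplotlib 3.10.9.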

Additional observations from a re-analysis of the deposited data

Results flagged for a closer look

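Many nuclear genes of the lists had a genotype effect that differed between the ages, 17 of the 81 subunit genes and 28 of the 131 genes that copy, express, insert or assemble, all lower at 8 dpf, among them *cox6b1* (-1.24), *foxred1* (-1.16), *tbrg4* (-1.06), *gfm1* (-0.90), *atp5mc1* (-0.77), *hars2* (-0.76) and *fen1* (-0.74). Over all 20598 genes tested at both ages, 1266 were lower and 400 higher at 8 dpf by the limma-based test of the difference. Among the genes that the naming rule picked at both ages, 3 differed by this test, and none of the 13 mitochondrial genes did. Other genes, named at 1 age only, differed too, such as those above and, upward, the liver genes *ahsg1* (2.95) and *ahsg2* (4.76). *chchd4a*, the mutated gene itself, changed by -1.60 on the log2 scale from 5 to 8 dpf (adjusted p = 1.01e-05), from 1.56 to -0.041. *tsfm*, the mitochondrial translation elongation factor Ts, changed by -1.19 (adjusted p = 5.58e-05), from 0.82 to -0.36. *cox10*, which makes the haem precursor of Co1, changed by -0.74 (adjusted p = 0.000524), from 0.50 to -0.24. Age, feeding, the possible starvation of the mutants at 8 dpf and the separate normalization of the ages cannot be told apart in these differences.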

How the results depend on the processing

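The number of the 9 mitochondrial genes past the test was 0 at both ages under every alternative, including an adjusted p under 0.1 in the main analysis. Each alternative was a moderated limma fit, which draws on the spread of other genes. None used the spread of a gene's own pools alone. The lowest adjusted p among the alternatives was 0.0578, that of *mt-co1* at 5 dpf with libraries scaled to the same total of other genes. The difference in their share of a library was 0.190 percentage points at 5 dpf and 0.540 at 8 dpf, and it moved to 0.327 and 1.14 when the 100 other genes of highest mean were left out of the denominator. Leaving out each pool gave 0.103 to 0.249 and 0.420 to 0.639. Their median log2 fold change at 8 dpf, 0.074, moved to -0.053 when libraries were scaled to the 9 genes, which centres them near 0 by construction. Leaving out each pool gave a median of 0.055 to 0.14 at 5 dpf and of 0.019 (without WT2) to 0.11 at 8 dpf. Reversals were of values near 0. Within the larger batch at 8 dpf they were *mt-atp6* (0.038), *mt-co3* (0.072), *mt-nd1* (0.0064) and *alas2* (0.054). Scaling to the 9 genes turned *mt-co2* (-0.053), *mt-nd3* (-0.10), *mt-atp8* (-0.085) and *atp5meb* (-0.0065) at 8 dpf, and the differences between ages of *mt-nd3* (-0.029), *mt-nd4l* (-0.014) and *mt-nd6* (-0.041). Scaling to the same total turned *mt-atp8* (-0.0027), *mt-nd3* (-0.019) and the age difference of *mt-nd6* (-0.0061), and scaling to the same total of other genes turned *mt-nd3* (-0.011) and *mt-nd6* (-0.00080). With each pool left out in turn, signs turned at 5 dpf in *mt-nd2* (-0.055 to 0.027) and *mt-nd3* (-0.047 to 0.077). At 8 dpf they turned in *mt-atp6* (-0.10 to 0.038), *mt-atp8* (-0.074 to 0.13), *mt-co3* (-0.062 to 0.072), *mt-nd1* (-0.045 to 0.0064), *mt-nd3* (-0.061 to 0.096), *alas2* (-0.22 to 0.054) and *chchd4a* (-0.14 to 0.075). Fold changes at 8 dpf without WT3 or without Mut3 equal those within the larger batch and are not separate checks. The cause of these changes was not tested.

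Whether a replicate number ties a Mut pool to a WT pool was examined from the correlation of their deviations from the group means. The correlations were -0.28, -0.191 and -0.0959 at 5 dpf and -0.281, -0.184 and -0.999 at 8 dpf. The last was forced by the removal of the batch effect. Deviations cancel out within a group, so that removal bears on the other 8 dpf correlations too. None of the 8 dpf correlations is evidence on pairing. WT3 and Mut3 of 8 dpf share a batch, which the model holds as a term. No pairing was found at 5 dpf, and beyond the batch the 8 dpf values cannot show whether there is any. With the replicate block, 0 of the 9 passed at either age. A block cannot move the medians of 0.091 and 0.074 in a balanced design. The nuclear subunits that rose at 5 dpf went from 40 to 7.

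Counting error was small beside the spread between pools for these genes. At 8 dpf the 95% confidence intervals of the 9 reached from -0.41 to 1.02, and that of *mt-co1*, whose standard error rests mostly on the fitted trend, extends past the second threshold of 0.9.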

Other observations

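Between the ages, the ratios of normalized values of neighbouring mitochondrial genes shifted in both genotypes, by 3.76-fold in WT and 3.45-fold in Mut for *mt-atp6* over *mt-atp8* and by 2.63-fold and 2.69-fold for *mt-nd4* over *mt-nd4l*. That the shift was the same in both was not tested. The ratio of *mt-atp6* to *mt-atp8* was 8.24 ± 0.700 in WT and 8.54 ± 0.346 in Mut at 5 dpf, and 30.9 ± 4.90 and 29.5 ± 1.61 at 8 dpf (SD, n = 3 pools each). The ratio of *mt-nd4* to *mt-nd4l* was 6.11 ± 0.455 and 5.74 ± 0.418 at 5 dpf and 16.1 ± 1.32 and 15.4 ± 1.22 at 8 dpf. Both of the genes that were lower at 8 dpf relative to their neighbour have short reading frames. The ratio of *mt-nd5* to *mt-nd6*, which lie on opposite strands, went the other way, from 2.84 ± 0.0464 and 2.85 ± 0.292 to 1.03 ± 0.112 and 1.07 ± 0.0105. Mut and WT overlapped in all 3 ratios at both ages. The genes of each pair overlap in the later assembly, and reads lying in several genes were left out by the authors. A ratio within a library is free of its scaling, but the ages were processed separately. Only the 8 dpf values had a batch effect removed. Age, feeding, library preparation and the counting of reads therefore cannot be told apart. These ratios were chosen after their values were seen.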
